A study of Arabidopsis thaliana with 18 samples.

Results

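A set of 9 genes that act in the secondary wall or in the death of water-conducting xylem cells was followed across 6 Arabidopsis genotypes. They were chosen by locus identifier, with earlier results of these data known, as 9 of the 33602 gene IDs in the count table. They are the cellulose synthase genes CESA4 (AT5G44030), CESA7 (AT5G17420) and CESA8 (AT4G18780), the xylan genes IRX9 (AT2G37090) and IRX10 (AT1G27440), the cysteine protease genes XCP1 (AT4G35350) and XCP2 (AT1G20850), and the laccase genes LAC4 (AT2G38080) and LAC17 (AT5G60020). All 9 passed the low count filter, which kept 19897 genes for testing. For every member the lowest genotype mean was in ref2-1, and the share of all genes with this order was not counted. In ref2-1 against wild type 6 of the 9 fell, where 11.2% of all tested genes were called lower.

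A xylem vessel cell lays down a thick wall inside its primary wall and then dies, leaving a hollow tube. CESA4, CESA7 and CESA8 form the cellulose synthase complex of that wall, IRX9 and IRX10 act in synthesis of the xylan backbone, and LAC4 and LAC17 oxidize monolignols so that lignin can form. XCP1 and XCP2 digest the cell contents as the cell dies. In a rosette these genes are used mainly in the leaf veins.

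RNA was extracted from whole 18-day-old rosettes of ecotype Columbia-0, and each library pooled 5 plants grown in different pots. There were 3 libraries for each of 6 genotypes: wild type, the double mutant med5a-1 med5b-1 (written med5 from here), the single mutants ref2-1 and ref5-1, and the triple mutants ref2-1 med5a-1 med5b-1 (ref2-1 med5) and ref5-1 med5a-1 med5b-1 (ref5-1 med5). The ref5-1 plants carry a missense allele of CYP83B1, an enzyme of indole glucosinolate synthesis, and ref2-1 plants carry a mutation in CYP83A1, its counterpart for aliphatic glucosinolates. MED5A and MED5B encode subunits of Mediator, which joins transcription factors to RNA polymerase, and the series asks which transcripts each lesion alters with and without them. All alleles are present throughout the plant, so no group isolates a vein cell type.

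Libraries held 19578169 to 33193849 gene counts, and a member had 75 to 1944 counts in a library. Levels are given as CPM (counts scaled to library size after TMM normalization). The genotype labels were checked on the targeted genes. CYP83A1 stood at 117 to 129 CPM in ref2-1 and at 345 to 462 CPM in wild type, and MED5B stood at 6.31 to 7.06 CPM in med5 against 23.5 to 25.6 CPM. In the triple mutants MED5B stood at 6.91 to 7.79 CPM (ref5-1 med5) and 7.61 to 8.47 CPM (ref2-1 med5). CYP83A1 stood at 120 to 154 CPM in ref2-1 med5. MED5A was at 29 to 33.8 CPM in med5 against 45.4 to 52.2 CPM in wild type. Its ranges overlapped between ref5-1 med5 (37.3 to 40.8 CPM) and ref2-1 (34.8 to 41.8 CPM), so its level does not mark the med5 alleles. The ref5-1 change alters the protein sequence, so the level of CYP83B1 checks nothing. Replicate 1 of ref5-1 was the lowest ref5-1 library for all 9 members, with a summed member level of 128 CPM against 207 and 217 CPM. Its summed levels of epidermis, procambium and primary wall cellulose synthase genes were also the lowest of the ref5-1 libraries, at 687, 113 and 1000 CPM. For the members, the ref5-1 comparisons are given with and without it. Because it was the lowest for all 9, leaving it out raises every ref5-1 mean by construction. The direction of that shift is therefore no result.

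The promoters of these genes are shown because the members moved together and because the secondary wall regulators MYB46 and MYB83 bind a known short motif in such promoters. The motif was searched on both strands in its 8 variants of 7 letters. These are ACCAAAC with its partner ACCAAAT, then also ACCAACC with its partner ACCAACT, then also ACCTAAC with its partner ACCTAAT, and lastly ACCTACC with its partner ACCTACT. The variants ACCTACC as well as ACCAACC along with ACCTAAC are also known as AC elements of lignin genes. Each window is the 300 bases before the annotated gene start in RefSeq TAIR10.1, and 4 of 9 windows held a match, against 33.9% of 27443 protein-coding genes. An AC element was in 1 of 9 windows against 7.16% of all. No member held 2 or more matches, against 8.06% of all. These shares are near those of all genes and nothing is read from them. The 4 windows with a match follow, 5′ to 3′ on the strand of the gene, with the matched letters of either strand in capitals.
CESA4, chr5:17714090-17714389, plus strand, TAIR10.1: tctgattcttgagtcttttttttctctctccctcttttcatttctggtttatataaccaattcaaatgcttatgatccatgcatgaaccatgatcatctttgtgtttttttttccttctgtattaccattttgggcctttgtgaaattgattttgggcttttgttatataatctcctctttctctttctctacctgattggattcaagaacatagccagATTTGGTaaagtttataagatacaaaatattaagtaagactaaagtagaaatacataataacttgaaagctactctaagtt
CESA8, chr4:10316887-10317186, minus strand, TAIR10.1: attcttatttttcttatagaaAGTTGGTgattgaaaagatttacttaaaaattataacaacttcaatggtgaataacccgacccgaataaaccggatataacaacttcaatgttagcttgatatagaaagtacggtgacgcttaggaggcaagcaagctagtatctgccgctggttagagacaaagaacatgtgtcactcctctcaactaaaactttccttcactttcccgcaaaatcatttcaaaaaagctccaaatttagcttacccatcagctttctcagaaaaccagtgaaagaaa
IRX10, chr1:9531490-9531789, minus strand, TAIR10.1: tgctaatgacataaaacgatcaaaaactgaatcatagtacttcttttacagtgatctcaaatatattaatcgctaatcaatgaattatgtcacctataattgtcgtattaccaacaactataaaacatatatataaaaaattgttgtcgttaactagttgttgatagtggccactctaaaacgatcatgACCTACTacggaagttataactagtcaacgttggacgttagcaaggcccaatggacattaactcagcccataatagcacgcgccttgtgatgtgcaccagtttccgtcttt
LAC17, chr5:24167696-24167995, plus strand, TAIR10.1: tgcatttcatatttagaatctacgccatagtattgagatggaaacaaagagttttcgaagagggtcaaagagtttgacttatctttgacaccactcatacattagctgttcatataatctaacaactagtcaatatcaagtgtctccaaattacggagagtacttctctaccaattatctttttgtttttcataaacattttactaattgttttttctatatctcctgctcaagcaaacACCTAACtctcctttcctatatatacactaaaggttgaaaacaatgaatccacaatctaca
In CESA4 and CESA8 the match lies on the opposite strand. In CESA4, CESA8 and LAC17 the window overlaps 1 other annotated gene. LAC17 holds the AC element.

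Levels between members were compared in wild type per kilobase of exon. The proteases were the most abundant, with XCP2 at 36.7 ± 6.41 CPM per kilobase (SD, n = 3) and XCP1 at 18.8 ± 3.48. The laccases followed, with LAC17 at 7.97 ± 1.45 and LAC4 at 6.65 ± 1.31 CPM per kilobase. The cellulose synthase transcripts were at 5.37 ± 0.648 (CESA4), 4.08 ± 0.33 (CESA8) and 3.89 ± 0.584 (CESA7), and the xylan genes were at 4.04 ± 0.441 (IRX10) and 3.77 ± 0.576 (IRX9). By their means the genes for cellulose and xylan lay under the laccases and proteases, but the library ranges of CESA4 (4.8 to 6.07) and LAC4 (5.68 to 8.14) overlapped. No stretch of 50 bases of a member is shared with the transcripts of another gene. The strand setting of the counting is not given in the sources used here. Reads from genes on the opposite strand can therefore not be told apart for CESA8, where AT4G18770 overlaps 481 bases but stood at 0 to 0.0426 CPM, and for LAC17, where the noncoding AT5G60022 overlaps 2266 bases and stood at 0.816 to 1.8 CPM. The overlaps of CESA4, CESA7 and XCP1 with an opposite gene are 65, 66 and 2 bases.

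**Figure D1:**
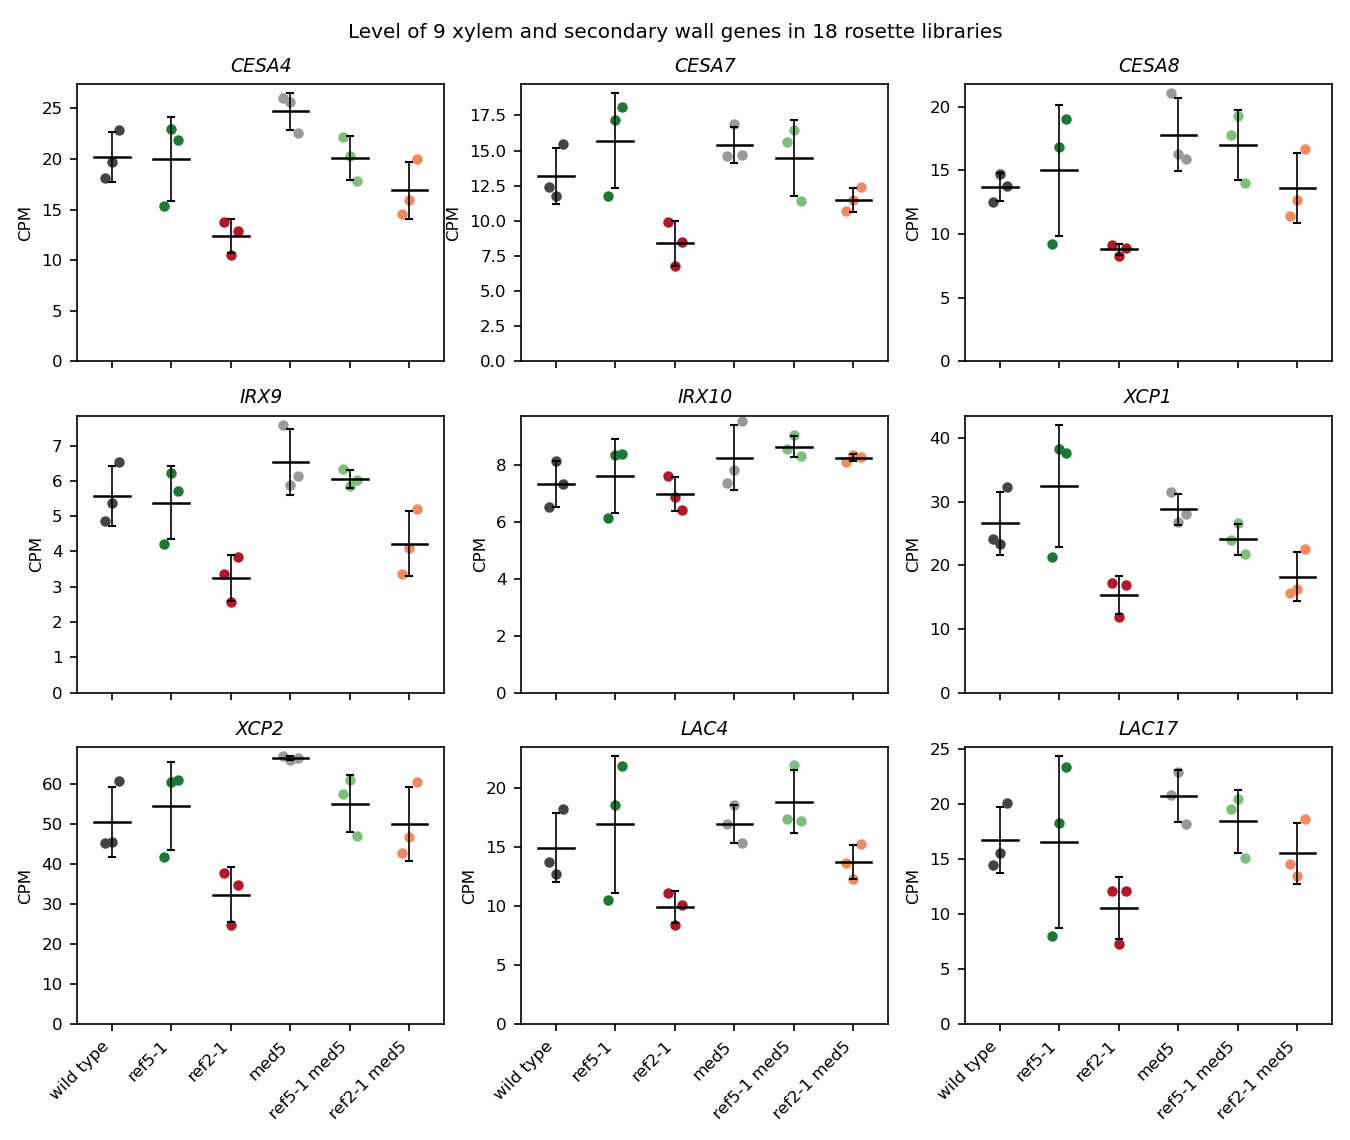
Level of each member in CPM (vertical axes, from 0) in the 6 genotypes (horizontal axis). Points are libraries, long horizontal lines are means and error bars are SD over 3 libraries. The ref2-1 mean is the lowest in all 9 panels, and the spread of IRX10 between genotypes is the smallest.

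The order of the genotypes was similar from member to member. The mean was lowest in ref2-1 for 9 of 9 members and highest in med5 for 5, in ref5-1 for 2 and in ref5-1 med5 for 2. The highest genotype mean was 1.87 to 2.11 times the lowest for 8 members and 1.24 times for IRX10. Summed over the members, the level was 169 ± 24.9 CPM in wild type, 184 ± 48.7 in ref5-1, 108 ± 18.2 in ref2-1, 206 ± 7.92 in med5, 183 ± 21.7 in ref5-1 med5 and 152 ± 24.2 in ref2-1 med5 (SD, n = 3). Above the lowest place most neighbours in the order did not separate. The library ranges of the lowest genotype and the next one, ref2-1 and ref2-1 med5 in 8 members, were separate for CESA4, CESA7, CESA8, XCP2, LAC4 and LAC17, and overlapped for IRX9 and XCP1. For IRX10 the next genotype was wild type and the ranges overlapped. The only other separate neighbours were med5 and ref5-1 med5 for XCP2.

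Loss of CYP83A1 function in ref2-1 went with lower transcripts for 6 of the 9 genes, covering all 3 cellulose synthases, IRX9 and both proteases, and none was higher. The folds of these 6 ran from 1.56 to 1.74. In edgeR's quasi-likelihood test 24.7% of all tested genes were called in this comparison, and 11.2% were called lower. The median log2 fold change of the 9 members was -0.66, against 0.001 over all tested genes. In a bulk rosette sample, fewer xylem cells and less RNA per xylem cell cannot be told apart.

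Among the cellulose synthases, CESA4 stood at 18.1, 19.7 and 22.9 CPM in the wild type libraries and at 13.8, 10.5 and 12.9 CPM in ref2-1. CESA7 was at 12.4, 11.8 and 15.5 CPM in wild type and at 9.93, 6.76 and 8.47 CPM in ref2-1. CESA8 was at 12.5, 14.7 and 13.8 CPM against 9.14, 8.29 and 8.93 CPM. For each of these subunits every ref2-1 library lay under every wild type library. The log2 fold changes were -0.71 ± 0.153 (SE) for CESA4 (adjusted p = 0.00272), -0.66 ± 0.175 for CESA7 (adjusted p = 0.00999) and -0.64 ± 0.217 for CESA8 (adjusted p = 0.0419). CESA8 was not called when any of the 6 libraries was left out, with adjusted p between 0.0605 and 0.122.

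The xylan genes did not move alike. IRX9, a member of glycosyltransferase family GT43, was at 4.86, 5.36 and 6.52 CPM in wild type and at 3.35, 2.56 and 3.85 CPM in ref2-1, with no overlap. Its log2 fold change was -0.79 ± 0.188 (adjusted p = 0.00492). IRX10, the xylan synthase subunit of family GT47, was at 6.54, 8.14 and 7.32 CPM against 7.61, 6.89 and 6.43 CPM, and the ranges overlapped. Its log2 fold change was -0.07 ± 0.129, with a 95% interval from -0.34 to 0.20 (adjusted p = 0.734). The difference between the members' changes was not tested. The homologs IRX9L and IRX10L, which have the same activities and serve primary walls as well, were at 21.4 ± 0.528 and 26.2 ± 1.67 CPM in ref2-1 and at 20.5 ± 1.83 and 24.9 ± 1.37 CPM in wild type.

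Of the proteases, XCP1 was at 24.2, 23.4 and 32.3 CPM in wild type and at 17.2, 11.9 and 16.9 CPM in ref2-1. XCP2 was at 45.4, 45.6 and 60.8 CPM against 37.8, 24.8 and 34.7 CPM. The groups did not overlap for either gene. XCP1 fell by 0.80 ± 0.217 on the log2 scale (adjusted p = 0.0143) and XCP2 by 0.64 ± 0.184 (adjusted p = 0.0177). The laccases had lower estimates that missed the threshold. LAC4 was at 13.7, 12.7 and 18.2 CPM in wild type and at 11.1, 8.39 and 10.1 CPM in ref2-1, a log2 fold change of -0.59 ± 0.214 (adjusted p = 0.0546). LAC4 was called lower by DESeq2 (adjusted p = 0.0237) and by edgeR on the compared libraries alone (adjusted p = 0.0236), with adjusted p from 0.0537 to 0.189 under the other alternatives. LAC17 was at 14.4, 15.5 and 20.1 CPM against 12.1, 7.22 and 12.1 CPM, a log2 fold change of -0.68 ± 0.312 (adjusted p = 0.133). For both laccases all ref2-1 libraries lay under all wild type libraries.

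In all, 8 of 9 members had separate library ranges with ref2-1 lower, against 20.8% of all tested genes. Replicate 2 of ref2-1 was the lowest ref2-1 library for 8 members (summed level 87.4 CPM against 122 and 114), and replicate 3 was the highest wild type library for 7. Without that ref2-1 library 2 members were called (CESA4 and IRX9), and without that wild type library 3 were (CESA4, CESA7 and IRX9). The 9 fold changes stayed negative in both fits.

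Other genes of wall building moved in ref2-1 as well. Of 22 further genes for cellulose, xylan and wall proteins, 10 fell and none rose, with a median log2 fold change of -0.54. The 4 with the smallest adjusted p were FLA11, a fasciclin-like arabinogalactan protein of secondary walls (5.24 against 10.9 CPM, log2 -1.06 ± 0.131, adjusted p = 2.89e-05), CTL2, a chitinase-like protein (-0.76 ± 0.143, adjusted p = 0.000873), the xylan gene F8H (-0.59 ± 0.124, adjusted p = 0.00189) and the glucuronoxylan methyltransferase gene GXM2 (-0.87 ± 0.222, adjusted p = 0.00778). Of 9 other laccase and peroxidase genes tied to lignin, LAC2 (-1.20), LAC10 (-0.74) and PRX25 (-1.06) fell and PRX71 rose (log2 1.70, adjusted p = 0.0178). None of 4 xylem cell death genes was called, at a median log2 fold change of -0.59, and no gene of that list had an unadjusted p under 0.05. Of 18 regulators 15 were tested and none was called by edgeR, with 1 at an unadjusted p under 0.05. Of these 15 estimates 14 were negative, with a median log2 fold change of -0.36 against 0.001 over all tested genes. The fiber switches NST1, NST2 and SND1 were near 0 CPM and were filtered. Of the 6 cellulose synthases of primary walls and seed coat, CESA9 fell (0.89 against 2.46 CPM, adjusted p = 0.000183).

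Marker genes of other cell types also differed between ref2-1 and wild type. Of 5 procambium genes PXY, ATHB8 and SMXL5 were lower (summed level 93.5 to 106 CPM against 127 to 132). Of 5 epidermis genes PDF1, FDH and PDF2 were lower (summed level of the 5, 655 to 686 against 850 to 924 CPM). Of 5 phloem genes SEOR1 and PP2-A1 were lower (summed level of the 5, 351 to 394 against 387 to 404 CPM). The phloem gene SUC2 went the other way without a call (log2 0.20, adjusted p = 0.263). LHCA1 was lower among 5 mesophyll genes (4730 against 5810 CPM), and the 5 summed to 29000 to 29800 against 32000 to 33900 CPM. SEP3 was lower among 8 floral genes (0.316 against 1.03 CPM, with 4 to 11 counts in ref2-1). The 8 summed to 7.52 to 8.75 against 8.46 to 13.1 CPM. Root markers were at or near 0 in every library (sum 0.0375 to 1 CPM), with RHD6 at 0 in wild type and ref2-1. The part of these cell types in the member results was not tested.

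**Figure D2:**
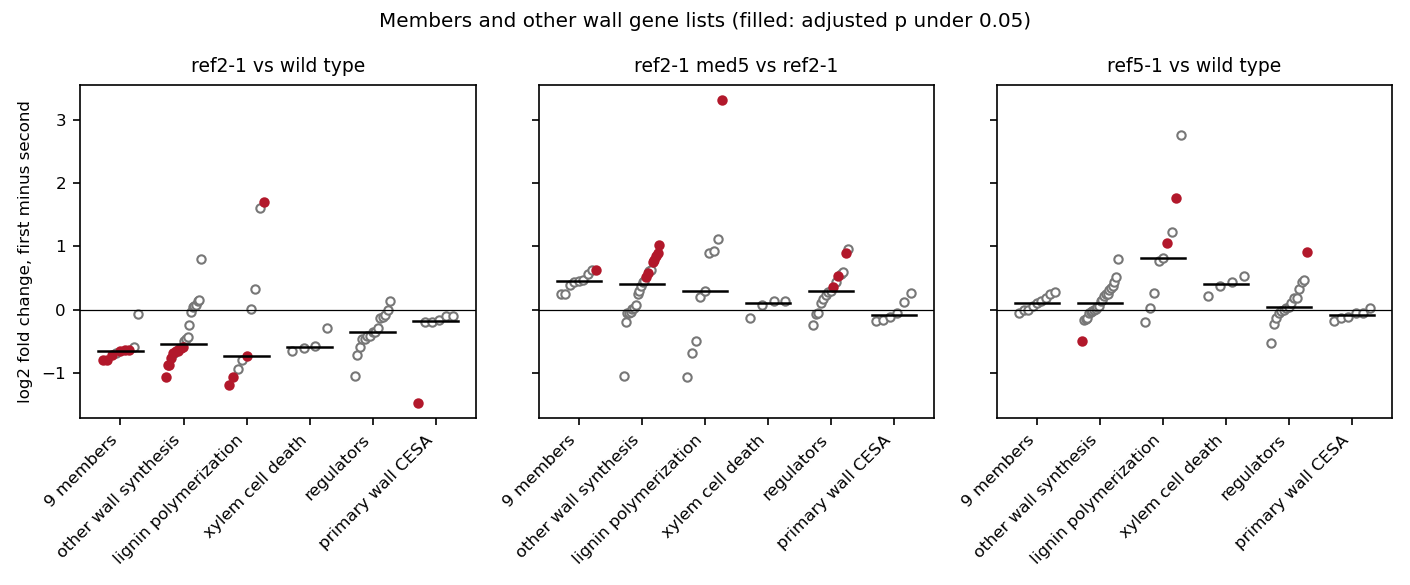
Log2 fold change (vertical axis) of the members and of 5 other lists (horizontal axis) in ref2-1 against wild type, ref2-1 med5 against ref2-1 and ref5-1 against wild type. Each point is a gene, filled where the adjusted p was under 0.05, and lines are list medians; the members' medians are -0.66, 0.46 and 0.11.

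The same allele was then compared where MED5 was lost in both groups. In ref2-1 med5 against med5, 3 members fell, CESA4, IRX9 and XCP1, and none rose. In this comparison 16.3% of all tested genes were called, and 7.52% were called lower. CESA4 was at 14.6, 15.9 and 20 CPM in ref2-1 med5 and at 26, 25.6 and 22.6 CPM in med5. IRX9 was at 3.36, 4.11 and 5.2 CPM against 7.59, 5.87 and 6.13 CPM. XCP1 was at 15.7, 16.2 and 22.6 CPM against 31.5, 26.8 and 28.1 CPM. None of the 3 overlapped between groups. Their log2 fold changes were -0.55 ± 0.151 (adjusted p = 0.0198), -0.63 ± 0.185 (adjusted p = 0.0277) and -0.66 ± 0.217 (adjusted p = 0.0493).

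The remaining 6 members ran from -0.42 (CESA7, LAC17) to 0.00 (IRX10, 95% interval -0.27 to 0.27), and the median over 9 was -0.42 against 0.016 over all genes. These calls rested on single libraries. None was made without replicate 1 of med5, without replicate 1 of ref2-1 med5 or without replicate 2 of ref2-1 med5, and IRX9 alone was called without replicate 2 of med5. With a fit of the compared libraries alone 6 members were called. In the fit to all 18 libraries GXM2 and FLA11 fell among the 22 further wall genes. Of 6 other cellulose synthases 5 fell, among them CESA9 (log2 -1.51), CESA6 (-0.52), CESA5 (-0.48) and CESA3 (-0.54). VNI2, a NAC repressor of vessel differentiation, rose (0.31), and the peroxidase gene PRX64 was at 0.307 against 0.0306 CPM and was called higher. Of phloem markers SUC2, SEOR1, APL and PP2-A1 were lower (321 to 347 against 431 to 467 CPM summed), of procambium PXY, and of epidermis FDH and PDF2. Their part was not tested.

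With the med5 alleles added to ref2-1 all 9 estimates were positive, and the test called 1 of them. XCP2 stood at 37.8, 24.8 and 34.7 CPM in ref2-1 and at 42.8, 46.7 and 60.6 CPM in ref2-1 med5, without overlap. It rose by 0.63 ± 0.184 on the log2 scale (adjusted p = 0.0453). Of all tested genes 8.91% were called in this comparison, and 4.65% were called higher. CESA8 had a log2 fold change of 0.63 ± 0.218 (adjusted p = 0.0849), CESA7 0.46 ± 0.177 (adjusted p = 0.112) and CESA4 0.44 ± 0.155 (adjusted p = 0.0837).

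The median over members was 0.46, against 0 over all genes, and 7 of 9 members had separate ranges with ref2-1 med5 higher, against 15.4% of all genes. In 5 members the unadjusted p was under 0.05. DESeq2 called 2 (CESA8 and XCP2), and edgeR called none without the low count filter. XCP2 was not called when replicate 2 or 3 of ref2-1, or any library of ref2-1 med5, was left out. Replicate 3 of ref2-1 med5 was its highest library for 8 members (180 CPM summed, against 135 and 141). Against wild type, ref2-1 med5 had no member called by edgeR, where 20.7% of all genes were. The unadjusted p was under 0.05 for IRX9 (log2 -0.40) and XCP1 (-0.55, adjusted p = 0.0863). DESeq2 called XCP1, and so did edgeR without replicate 3 of ref2-1 med5. In edgeR with all libraries VNI2 rose against wild type (0.49), PRX64 was called higher (0.307 against 0.0259 CPM), and PRX25 (-1.55), CESA9 (-1.20), CESA5 (-0.35) and CESA6 (-0.26) fell. Of markers, SEP2, AP3, PI and FUL were higher and PP2-A1 was lower, and their part was not tested.

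Further wall genes rose when med5 was added to ref2-1. Of the 22 genes 7 rose, with FLA11 from 5.24 to 10.6 CPM (log2 1.02 ± 0.132, adjusted p = 0.000121), CTL2 (0.78 ± 0.144, adjusted p = 0.0027), COBL4, a COBRA-like protein of cellulose deposition (0.89 ± 0.169, adjusted p = 0.00312), and F8H (0.51 ± 0.125, adjusted p = 0.015). Among 15 regulators tested, VND1 and VND6, NAC switches of vessel differentiation, rose (log2 0.89 and 0.53), as did VNI2 (0.35). PRX64 had 0 to 1 counts per ref2-1 library and 3 to 13 per ref2-1 med5 library. Of 8 floral markers 7 rose, and their sum was 18.7 to 20.4 CPM against 7.52 to 8.75 CPM. PXY, WOX4 and SMXL5 rose among procambium markers, PDF1 among epidermis and LHCA1 among mesophyll genes. Of 5 phloem markers PP2-A1 fell, but 3 estimates were positive and 2 negative. The part of these markers in the member results was not tested.

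The med5 alleles alone left the 9 members uncalled, with 0.779% of all genes called against wild type. All 9 estimates were positive, with a median log2 fold change of 0.23. XCP2 was at 67.2, 66 and 66.7 CPM in med5 and at 45.4, 45.6 and 60.8 CPM in wild type, which did not overlap. Its log2 fold change of 0.40 ± 0.181 had an adjusted p of 0.39, and it was the only member with an unadjusted p under 0.05. The ranges of CESA8 were also separate, at 21.1, 16.3 and 15.9 CPM against 12.5, 14.7 and 13.8 CPM (log2 0.38, adjusted p = 0.506). These 2 were the only members with separate ranges, and the share of all genes was not counted. DESeq2 called 0 members. Floral markers summed to 13.4 to 20.2 CPM in med5 against 8.46 to 13.1 CPM, with 0 of 8 called and 7 at an unadjusted p under 0.05, and PXY was called higher. Their part was not tested.

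Whether the ref2-1 effect differs with MED5 lost was tested as an interaction. The members' estimates ran from 0.07 (IRX10) to 0.29 (LAC4), with a median of 0.23, and none was called by edgeR or DESeq2 or had an unadjusted p under 0.05. Of all genes 0.749% were called. For CESA4 the interaction was 0.15 with a 95% interval from -0.30 to 0.61, and for XCP1 it was 0.13 from -0.52 to 0.79. These intervals include both no difference and one nearly the size of the ref2-1 effect.

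**Figure D3:**
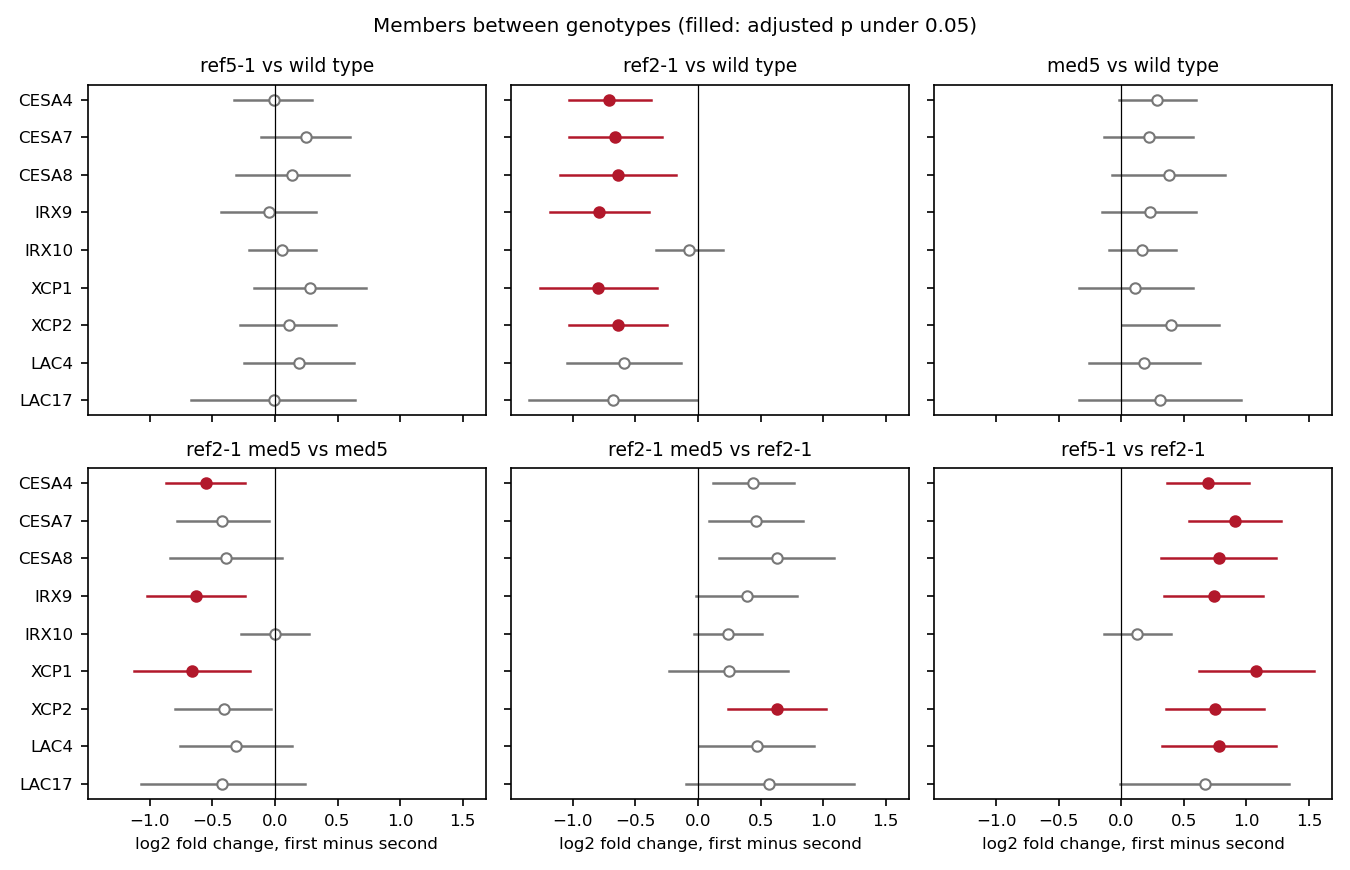
Log2 fold change of each member (points) with its 95% interval (lines) in 6 comparisons. Filled points have an adjusted p under 0.05; they number 6 in ref2-1 against wild type, 3 in ref2-1 med5 against med5, 1 in ref2-1 med5 against ref2-1 and 7 in ref5-1 against ref2-1.

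The ref5-1 allele left no member called against wild type, where 8.72% of all genes were. The log2 fold changes ran from -0.05 (IRX9) to 0.28 (XCP1), the median was 0.11, all library ranges overlapped and no unadjusted p was under 0.05. DESeq2 called 0. CESA4 was at 15.3, 23 and 21.9 CPM in ref5-1, CESA7 at 11.8, 17.2 and 18.1 CPM, and CESA8 at 9.23, 16.8 and 19 CPM. IRX9 was at 4.22, 6.23 and 5.7 CPM and IRX10 at 6.13, 8.36 and 8.39 CPM. In each of these replicate 1 was the low value. XCP1 was at 21.3, 38.2 and 37.6 CPM, XCP2 at 41.8, 60.6 and 61.2 CPM, LAC4 at 10.5, 18.5 and 21.8 CPM and LAC17 at 7.99, 18.3 and 23.3 CPM.

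Replicate 1 was the lowest ref5-1 library for all 9 members, so leaving it out raises their estimates by construction. Without it all 9 were positive, with a median of 0.32. The largest was 0.51 ± 0.179 for XCP1 (adjusted p = 0.115), LAC4 was at 0.44 ± 0.156 (adjusted p = 0.114), and still none was called. Among the other genes, in the fit to all libraries, F8H fell (log2 -0.49, adjusted p = 0.0174). The peroxidase genes PRX25 (1.61 against 0.768 CPM) and PRX72 (1.05 against 0.304 CPM) rose, by 1.06 and 1.76. XND1, a NAC repressor of xylem differentiation, rose from 2.77 to 5.19 CPM (0.91 ± 0.171, adjusted p = 0.00258). Of 5 procambium markers WOX4 rose, while the other 4 estimates were negative and not called. Of 8 floral markers SEP3 fell, with 4 estimates positive and 4 negative.

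Set against ref2-1, ref5-1 had 7 members higher, all but IRX10 and LAC17. Of all genes 21.4% were called in this comparison and 10.4% were called higher. XCP1 was 2.12-fold higher (log2 1.08 ± 0.217, adjusted p = 0.00252) and CESA7 1.88-fold (0.91 ± 0.174, adjusted p = 0.00129). CESA8 and LAC4 each differed by 0.78 (adjusted p = 0.0179 and 0.016), XCP2 by 0.75 (adjusted p = 0.00837), IRX9 by 0.74 (adjusted p = 0.00915) and CESA4 by 0.69 (adjusted p = 0.00366). IRX10 differed by 0.13 (95% interval -0.14 to 0.40) and LAC17 by 0.67 (-0.01 to 1.34). The members' median was 0.75 against -0.015 over all genes. LAC4 was called although its ranges overlapped, with 10.5 CPM in the lowest ref5-1 library and 11.1 CPM in the highest ref2-1 library. CESA8 and LAC4 each lost the call in 3 of 6 fits that left out a library (replicate 2 of ref2-1, and replicate 2 or 3 of ref5-1), with adjusted p up to 0.0806 and 0.0763, and LAC4 also with the compared libraries alone (0.0594).

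Without replicate 1 of ref5-1 LAC17 was called too (1.01 ± 0.227, adjusted p = 0.00755) and the members' median was 1.01, and without replicate 2 of ref2-1 the count was 4 (CESA4, CESA7, XCP1 and XCP2). This comparison shares its ref2-1 libraries with the one against wild type and is no independent measure of them. With all libraries, 13 of the 22 wall genes were higher in ref5-1, led by CTL2 (1.01, adjusted p = 9.53e-05), FLA11 (0.89, adjusted p = 0.000135), GXM1 (1.03, adjusted p = 0.000824) and COBL4 (0.80, adjusted p = 0.00234). XND1 was 1.27 higher on the log2 scale (adjusted p = 7.45e-05) and KNAT7, a homeodomain regulator of secondary walls, 0.76 (adjusted p = 0.00164). Of the 9 lignin genes 6 were higher, with PRX25 at 2.12 (adjusted p = 0.000143), LAC12 at 1.56, LAC2 at 1.22 and PRX64 at 0.204 against 0.0262 CPM, and CESA9 was higher by 1.34. WOX4, PXY, ATHB8 and SMXL5 of the procambium, the phloem genes SEOR1, APL and PP2-A1, the mesophyll genes LHCA1, LHCB3 and PSBO1, and CER6 of the epidermis were higher in ref5-1, and their part was not tested.

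No member was called in ref5-1 med5 against wild type, med5 or ref5-1 with all libraries. Against wild type 19.1% of all genes were called, against med5 10.4% and against ref5-1 10.8%, and the members' medians were 0.13, -0.11 and 0.15. Without replicate 1 of ref5-1 the last of these turned to -0.15, with 7 of 9 estimates negative where 7 of 9 had been positive. A downward shift follows from leaving out that library, the lowest of ref5-1 for all 9 members. No member had an unadjusted p under 0.05 in these 3 comparisons in edgeR, and DESeq2 called 0. CESA4 was at 22.2, 20.3 and 17.8 CPM, XCP1 at 23.9, 26.7 and 21.8 CPM, XCP2 at 57.5, 61 and 47.1 CPM and LAC4 at 17.3, 21.9 and 17.2 CPM in ref5-1 med5. XCP1 was the largest difference from ref5-1 (-0.42 ± 0.213, adjusted p = 0.217). Without replicate 1 of ref5-1 it was called lower (-0.66 ± 0.18, adjusted p = 0.0446). With all libraries, XND1 (-0.71) and VND7 (-0.98), a NAC switch of vessel differentiation, fell against ref5-1, and CESA2 of primary walls (0.40) and PRX64 (2.03) rose. Against wild type PRX72 (2.64), LAC12 (1.34), GUX2 of xylan side chains (0.77) and CESA2 (0.22) rose and F8H fell (-0.43), and PRX64 was called higher (0.838 against 0.0259 CPM). Against med5 LAC12 (1.36) and PRX25 (1.28) rose, PRX64 was called higher (0.838 against 0.0306 CPM), and IRX14L, a homolog of the xylan gene IRX14, and VNI2 fell (-0.42 and -0.22).

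Of markers, APL, WOX4 and CER6 were higher in ref5-1 med5 than in wild type, and so was CASP1 of the root (0.432 against 0.0511 CPM). Of the 5 epidermis markers, CER6 among them, 2 estimates were positive and 3 negative. Against med5 WOX4 was higher, and AP1, AP3, FUL, CALS7, SMXL5, LHCA1 and PDF2 were lower. SEP3 and RBCS1A were higher than in ref5-1, while 4 of 8 floral and 3 of 5 mesophyll estimates were negative. The part of these markers was not tested.

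The interaction of ref5-1 with med5 ran from -0.54 (XCP1) to 0.01 (IRX10) over the members, median -0.19, with none called by edgeR or DESeq2, none at an unadjusted p under 0.05 and 0.0905% of all genes called. Without replicate 1 of ref5-1 all 9 estimates were negative, from -0.77 (XCP1) to -0.12 (IRX10), the median was -0.45, and none was called. Leaving out the lowest ref5-1 library shifts this interaction down by construction.

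**Figure D4:**
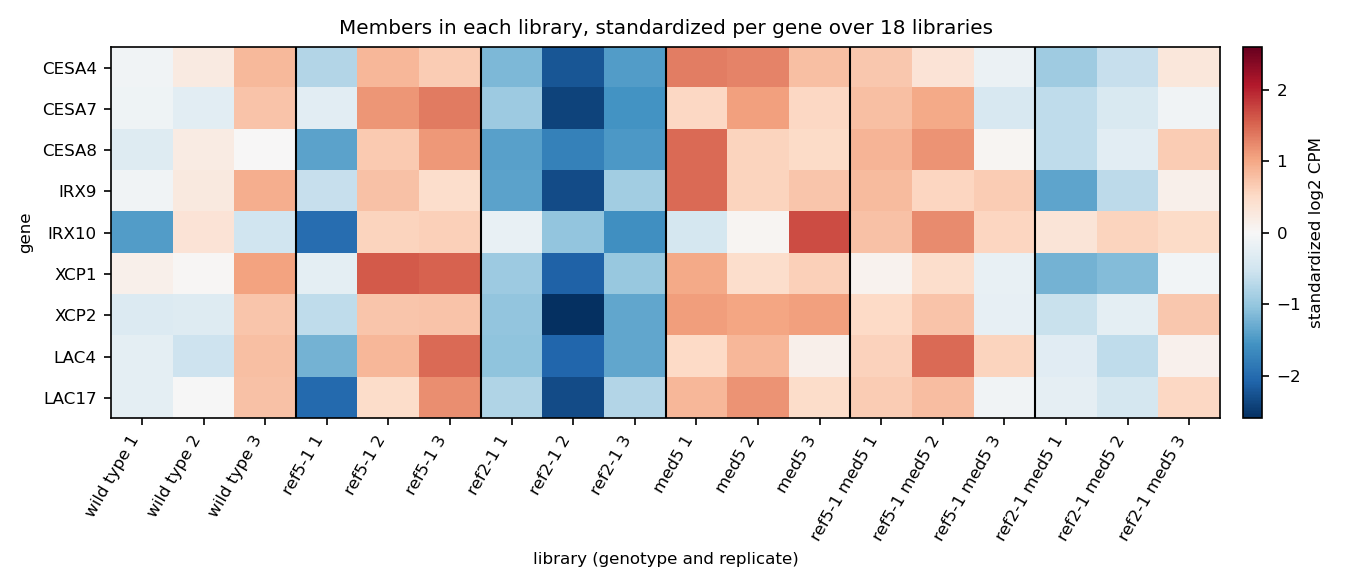
Members (vertical axis) in each of 18 libraries (horizontal axis, grouped by genotype), coloured by log2 CPM standardized per gene. Blue columns are low libraries; replicate 1 of ref5-1 is low for all 9 members within its genotype and replicate 2 of ref2-1 for 8.

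Members varied together from library to library. Over the 18 libraries the 36 pairwise Pearson correlations of log2 CPM had a median of 0.86 (0.33 to 0.96), and after removing genotype means the median was 0.83 (0.25 to 0.95). The libraries share plants, extraction and depth for all genes, so these are descriptions. The closest pair was CESA4 and XCP2 (0.96), and within genotypes XCP1 and XCP2 (0.95). Each member's correlation with the mean of the other 8 was 0.86 to 0.96, except 0.56 for IRX10.

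The other genes most like the members' mean profile, out of 18144 with a mean of at least 1 CPM over 18 libraries, were PRR1 (r = 0.954), a pinoresinol reductase of lignan synthesis, the subtilase gene SBTI1.1 (0.953), the beta-galactosidase gene BGAL5 (0.949), CTL2 (0.936), the xylan gene GAUT12, also called IRX8 (0.926), the decapping gene DCP1 (0.911), the procambium regulator ATHB8 (0.909), AT1G12570 and AT2G28315 (both 0.907), and SCPL27 (0.906), named for a serine carboxypeptidase. Among the regulators with a mean of at least 1 CPM, r ran from -0.214 (VNI2) to 0.879 (VND4, mean 3.71 CPM). SND2 had r = 0.775 and KNAT7 0.666, at means of 2.62 and 4.98 CPM. VND7 had r = 0.471, MYB46 0.487 and MYB83 0.216, at means of 1.27, 1.23 and 1.12 CPM.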

How the data were processed

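Whole rosettes of 6 genotypes were sequenced as poly(A) RNA in stranded libraries, per the labels' protocols. The authors deposited unnormalized counts of reads for every gene. The submitters' processing notes name edgeR, HTSeq 0.6.1, TopHat2 2.1.0, Trimmomatic and TAIR10; for options, annotation release and strand setting, the sources used here give nothing. The 5 summary lines stayed out (no feature 0.775% to 1.44%, ambiguous 0.648% to 1.37%, several alignments 3.71% to 25.3%). The 25.3% was in replicate 1 of ref5-1 med5, also the library with the fewest gene counts (19578169). The next highest share was 8.91%, in replicate 2 of ref2-1.

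Counts were tested in edgeR 4.0.16 (R 4.3.3): TMM scaling, filterByExpr, a quasi-likelihood fit of 1 coefficient per genotype to all 18 libraries, and Benjamini-Hochberg adjustment over 19897 genes. Genes were called at an adjusted p under 0.05. The series describes biological triplicates; p-values reflect spread among these libraries. The members and lists were chosen with earlier results of these data known. Named from each list are up to 4 called genes with the smallest adjusted p, called markers, and the 10 genes most correlated with the members. IRX9L, IRX10L, the filtered regulators and the regulators given by correlation, with their levels, were named after their values were seen. Alternatives were size factor (RLE) scaling, DESeq2 1.42.0, no low count filter, the compared libraries alone, a replicate block and leaving out each library. The scripts were tested on simulated data. Promoter letters and exon lengths came from RefSeq TAIR10.1.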

Additional observations from a re-analysis of the deposited data

How the results depend on the processing

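Leaving out each library gave 2 to 5 members lower in ref2-1 against wild type (6 with all libraries), 0 to 3 in ref2-1 med5 against med5 (3), 0 to 1 higher in ref2-1 med5 against ref2-1 (1), 4 to 8 in ref5-1 against ref2-1 (7), 0 to 1 in ref2-1 med5 against wild type (0) and 0 to 1 in ref5-1 med5 against ref5-1 (0). With the compared libraries alone 6 members were called in ref2-1 med5 against med5. DESeq2 called 2 in ref2-1 med5 against ref2-1 and 1 in ref2-1 med5 against wild type, and without the low count filter the former count was 0. The causes were not tested. For members with an unadjusted p under 0.05 in a comparison, 258 values under the alternatives stayed on their side of the threshold, 42 lost the call, 8 gained it and none changed direction. Outside that set LAC17 in ref5-1 against ref2-1 (adjusted p = 0.00755) and XCP1 in ref5-1 med5 against ref5-1 (0.0446) were gained without replicate 1 of ref5-1. That library was the lowest of ref5-1 for all 9 members.

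Whether replicate numbers pair the samples was not settled. Of 45 same-numbered pairs 13 correlated above 0.1 (-0.19 to 0.35, median 0.04), and 9 of 18 libraries correlated best with their own number. With the replicate block 5 members were called in ref2-1 against wild type, CESA8 being lost, and the other counts were 3, 1, 7 and 0.

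Over all genes DESeq2 called 494 in med5 against wild type (155 in edgeR), 592 in the ref2-1 interaction (149; 297 with the block) and 125 in the ref5-1 interaction (18). With the compared libraries alone the counts were 10 in that interaction, 1166 in ref5-1 med5 against ref5-1 (2149), 2816 in ref5-1 against ref2-1 (4258) and 1057 for ref5-1 with wild type (1735). Leaving out each library gave 38 to 475 in the ref2-1 interaction, 10 to 33 in the ref5-1 interaction and 52 to 184 in med5 against wild type. For ref2-1 med5 the ranges were 1578 to 2579 against med5 (3238), 762 to 1468 against ref2-1 (1773) and 2708 to 3237 against wild type (4125). For ref5-1 med5 they were 1078 to 2079 against med5 (2077), 897 to 2216 against ref5-1 and 2406 to 3565 against wild type (3800), and for ref5-1 with wild type 716 to 1695. At the lowest depth 1 CPM equals 19.58 counts, so genes near 0 CPM are imprecise.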
